A study of Mus musculus with 49 samples.

Results

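Single late 2-cell mouse embryos depleted of the forkhead transcription factor FOXJ3 (FOXJ3 LOF) were compared with CONTROL embryos injected with rabbit IgG. Sample titles gave 17 FOXJ3 LOF and 13 CONTROL embryos, 30 of the 49 embryos of the series, in 2 library batches. Embryos with fewer than 500000 counted reads were left out, which removed 1 LOF embryo with 308682 reads and kept 16 LOF embryos (9 in batch 1 and 7 in batch 2) and 13 CONTROL embryos (7 and 6). All came from F1 females (C57BL/6J and CBA/H) crossed to F1 males, and were cultured in KSOM. Zygotes of the LOF group received a rabbit polyclonal antibody against FOXJ3, and those of the CONTROL group normal rabbit IgG. Both groups were injected 4 h later with mRNA for mCherry-Trim21, and all embryos were collected 48 h after hCG. Each embryo gave a Smart-seq+5' library of its own, in which reads from transcript 5' ends were counted per gene and per transposable element (TE) family. Per the study's methods, the embryos came from several independent experiments. Which embryo came from which experiment was not used here, so p-values measure the spread between these embryos.

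Forkhead factors bind DNA through a winged-helix domain that recognizes a short core site, and FOXJ3 is known from skeletal muscle, where it acts upstream of Mef2c, and from spermatogenesis. In Trim-Away, the antibody bound to its protein recruits the ubiquitin ligase Trim21, which sends the protein to the proteasome. The late 2-cell stage is when the mouse embryonic genome becomes broadly active, while maternal transcripts of the oocyte are being degraded. Because Trim-Away acts on protein, transcript counts do not measure the loss of FOXJ3, and FOXJ3 protein is not part of the files used here.

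The kept embryos had 1103569 to 3430110 counted reads in LOF and 1302207 to 3257323 in CONTROL. Normalized counts are read counts scaled to the mean effective library size of the kept embryos, and CPM are the usual library-size-scaled counts without the TMM factor. Markers of the late 2-cell stage were present throughout, with 2417 to 3480 summed normalized counts over 15 single-copy 2-cell genes in LOF and 2393 to 3679 in CONTROL. Of 16 cumulus and granulosa cell markers, 6 had enough reads to be tested. Their summed normalized counts were 40.5 to 99.8 in LOF and 37.5 to 100.8 in CONTROL. Among the untested ones, Amh, Inhba and Fshr had no read in either group, and Vim had the most, 13 in LOF and 8 in CONTROL. Of 11 sperm markers, 3 were tested, at 0 to 18.6 summed normalized counts in LOF (median 5.90) and 0 to 11.5 in CONTROL (median 1.57). Over all embryos the log2 fold changes of these 3 were above 0 (median 1.26), and in batch 1, 1 of 3 was below 0 (median 0.22). An unadjusted p under 0.05 was found in edgeR for 0 of 3 over all embryos. Without the 2 CONTROL embryos described next it was found for 2 of 3 (median 1.67). Of the untested sperm markers, Prm1 had 0 reads in LOF and 3 in CONTROL, and Tnp1 had 1 and 6. The other untested ones had equal reads in both groups. The part of sperm transcripts in the results was not tested. In a principal component analysis, CONTROL embryos 2 and 3 of batch 1 stood apart, at 84.7 and 121 on the first component (24.4% of the variance) against -51.9 to 56.2 for the other 27 embryos. Many results are given with and without these 2 embryos, a choice made after the data were seen.

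To show the start sites of the genes that the comparison turned on, RefSeq promoter windows (250 bases before to 50 bases after the start annotated in RefSeq, GRCm38.p6, 5' to 3' on the gene's strand) are printed for Letm1 and Ino80b, and for Nme6 as the named lower gene whose window held the core forkhead site. Capitals mark that site, GTAAACA, which was searched together with its reverse complement TGTTTAC. Gene coordinates elsewhere in the text are from gencode, which places the starts of Letm1, Ino80b and Nme6 upstream of those of RefSeq, so the Ino80b window lies wholly within the gencode gene.
Letm1, chr5:33782668-33782967, reverse strand: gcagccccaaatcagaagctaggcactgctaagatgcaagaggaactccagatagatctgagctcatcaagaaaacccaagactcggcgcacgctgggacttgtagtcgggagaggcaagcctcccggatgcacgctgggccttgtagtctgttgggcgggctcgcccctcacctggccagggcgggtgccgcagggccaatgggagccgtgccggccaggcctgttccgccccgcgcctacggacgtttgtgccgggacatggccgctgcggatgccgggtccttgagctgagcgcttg
Ino80b, chr6:83125070-83125369, reverse strand: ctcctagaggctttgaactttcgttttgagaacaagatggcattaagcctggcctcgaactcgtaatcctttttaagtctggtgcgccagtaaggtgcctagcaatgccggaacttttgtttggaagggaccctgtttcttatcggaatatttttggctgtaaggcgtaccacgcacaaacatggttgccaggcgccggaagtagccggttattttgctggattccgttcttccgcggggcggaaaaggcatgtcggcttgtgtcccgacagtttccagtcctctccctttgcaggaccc
Nme6, chr9:109832544-109832843, forward strand: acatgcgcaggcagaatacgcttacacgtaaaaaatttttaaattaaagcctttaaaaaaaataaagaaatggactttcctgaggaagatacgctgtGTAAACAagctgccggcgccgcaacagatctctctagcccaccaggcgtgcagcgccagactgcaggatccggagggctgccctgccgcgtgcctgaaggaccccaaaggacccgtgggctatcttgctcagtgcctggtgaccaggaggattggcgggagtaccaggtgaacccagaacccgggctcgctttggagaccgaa

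The site lay 153 bases before the start of Nme6 and was in neither of the other windows. It was present in 3.65% of all 32851 promoter windows and in 383 of 11901 windows of tested genes (3.22%). Among genes with an unadjusted p under 0.05, the windows of 9 of 384 with lower levels in LOF (2.34%) and of 4 of 285 with higher levels (1.40%) held it. Without the 2 CONTROL embryos that stood apart, these were 9 of 384 (2.34%) and 11 of 388 (2.84%). These shares are descriptions of the letters in the windows.

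The first comparison asked which genes differed between FOXJ3 LOF and CONTROL embryos. Only 2 genes passed the threshold of an adjusted p of 0.05, Letm1 and Gm37234, and both fell in LOF (edgeR's quasi-likelihood test with library batch as a covariate and Benjamini-Hochberg adjustment). They were 0.0102% of the 19517 genes and TE families tested, which are called features here. An unadjusted p under 0.05 was found for 5.71% of them, namely for 437 features with higher levels in LOF (2.24%) and for 678 with lower levels (3.47%), and over all genes the log2 fold change had a median of -0.03. When embryos were scaled to ERCC spike-ins, this median moved to 0.15 and the split turned to 636 higher (3.26%) and 251 lower (1.29%), and with limma's voom it was 630 higher and 499 lower. In no feature did the groups fail to overlap in the direction of lower or of higher LOF levels over both batches (0.0% each). The plot of level and change shows all features, with both genes that passed below 0.

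**Figure D1:**
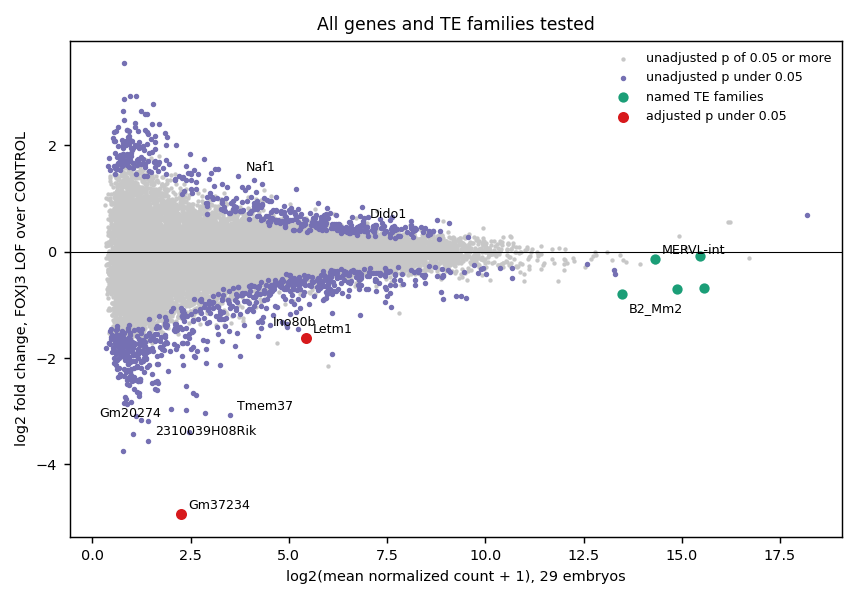
Log2 fold change of FOXJ3 LOF over CONTROL against log2(mean normalized count + 1) over 29 embryos for all 19517 genes and TE families tested, with each point a gene or family. The 2 features with an adjusted p under 0.05 (red), Letm1 at -1.63 and Gm37234 at -4.93, lie below 0, and B2_Mm2, B2_Mm1t, B2_Mm1a, MERVL-int and MT2_Mm (green) lie between -0.79 and -0.07.

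Letm1 (ENSMUSG00000005299.6) encodes a protein of the inner mitochondrial membrane needed for the exchange of cations against protons. The gene lies on the reverse strand at chr5:33739673-33782817 (GRCm38). Its normalized count was 2.19 at the lowest, 23.0 at the median and 35.8 at the highest in 16 LOF embryos, and 26.3, 52.6 and 148 in 13 CONTROL embryos. All 16 LOF embryos were below the CONTROL median, 11 of them below the lowest CONTROL embryo, and 10 of 13 CONTROL embryos were above the highest LOF embryo. The log2 fold change was -1.63 ± 0.27 (SE; edgeR, adjusted p = 0.0088), so Letm1 fell to 32.3% of the CONTROL level. It was -1.79 in batch 1 and -1.43 in batch 2, and -1.72 without the 2 CONTROL embryos that stood apart (edgeR, adjusted p = 0.00184). The direction was the same in all 17 alternatives (-1.81 to -1.39), of which 9 kept the adjusted p under 0.05, and the call held when any single embryo was left out. It did not pass with limma's voom (adjusted p = 0.0848), under ERCC scaling (-1.39, edgeR, adjusted p = 0.128) or in either batch alone (edgeR, adjusted p = 0.209 in batch 1 and 0.66 in batch 2).

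Embryos of the 2 groups also differed in mCherry-Trim21 and in ribosomal RNA, and the call of Letm1 moved with both. The mCherry-Trim21 transcript was at 225 to 1882 CPM in LOF (median 351) and at 246 to 3162 CPM in CONTROL (median 839), so the LOF mean was 1.00 lower in log2(CPM + 1), a difference past the threshold (permutation test within batches, two-sided, p = 0.0129 and 0.0460 when adjusted over 6 measures). Per reads outside the ribosomal RNA rows, also added after the data were seen, the difference was -0.86 and did not pass (permutation test, p = 0.0223 and 0.067 when adjusted). In batch 1 the difference was -0.73 (exact permutation test, p = 0.0802) and in batch 2 it was -1.32 (exact permutation test, p = 0.0851). The share of reads on 3 rows of ribosomal RNA repeats, a measure added after the data were seen, was 23.1 ± 7.98% in LOF (SD, n = 16) and 15.4 ± 8.52% in CONTROL (SD, n = 13; permutation test within batches, p = 0.0194 and 0.0387 when adjusted over 8 measures). When the fit also held the mCherry-Trim21 level, the log2 fold change of Letm1 was -1.57 (edgeR, adjusted p = 0.238), and when it held the ribosomal RNA share it was -1.52 (edgeR, adjusted p = 0.0833). The part of either in the difference was not tested further. In 9 embryos of the other experiment's control, injected with mouse IgG, Letm1 had a median of 17.6 CPM (9.51 to 34.4), beside 9.99 in LOF and 26.2 in CONTROL with rabbit IgG.

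**Figure D2:**
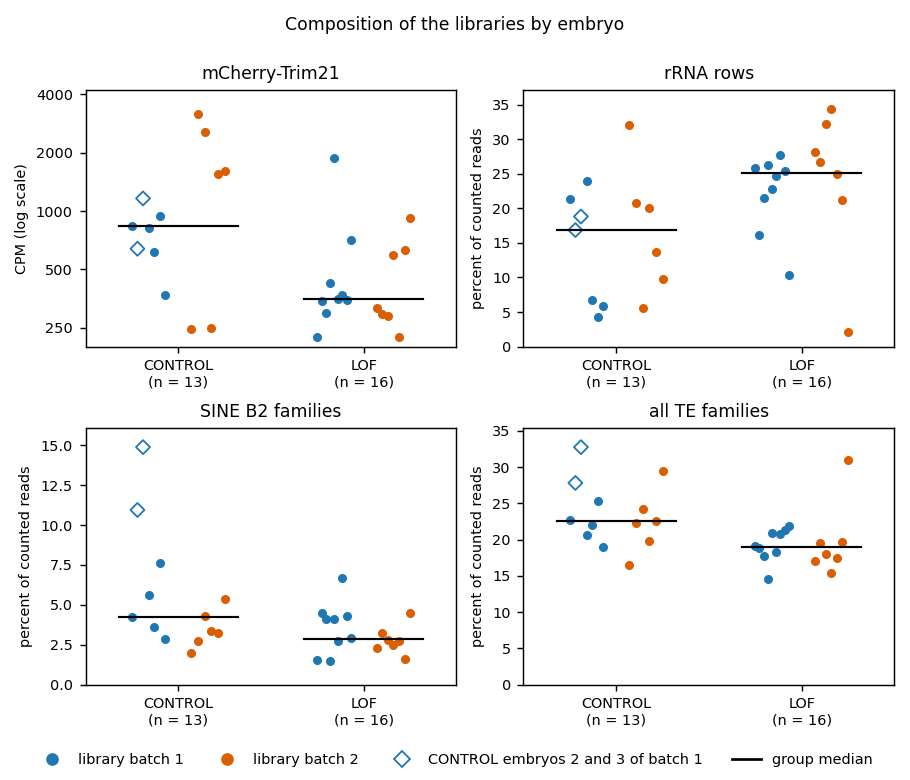
mCherry-Trim21 level (CPM, log scale) and shares of counted reads (percent) on ribosomal RNA rows, SINE B2 families and all TE families in each kept embryo, by group (13 CONTROL, 16 LOF), with points for embryos and a line at the group median. The median of mCherry-Trim21 is 351 CPM in LOF and 839 CPM in CONTROL, and the 2 CONTROL embryos that stood apart (diamonds) have the highest SINE B2 shares, 10.9% and 14.9%.

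Gm37234, an unclassified transcript of chromosome 9 annotated within Prtg, was the second gene to pass. It was at 0 in 14 of 16 LOF embryos and in 7 of 13 CONTROL embryos, with a highest value of 1.43 normalized counts in LOF and 85.9 in CONTROL. Its log2 fold change was -4.93 (edgeR, SE 0.93, adjusted p = 0.0397). The value of 85.9 came from 1 of the CONTROL embryos that stood apart, and without both the log2 fold change was -3.13 (edgeR, adjusted p = 0.262). The sources used here do not say whether the counting used strand, so reads of Gm37234 and of Prtg cannot be told apart.

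Ino80b, a subunit of the INO80 nucleosome remodeling complex, lies at chr6:83121765-83125431 on the reverse strand and overlaps the antisense gene Gm44287. Its normalized counts were 4.37, 13.2 and 32.7 (lowest, median and highest) in LOF and 6.87, 29.3 and 46.3 in CONTROL. In LOF, 15 of 16 embryos were below the CONTROL median, and the lowest CONTROL values, 6.87 and 13.5, were those of the 2 embryos that stood apart. The log2 fold change was -1.06 ± 0.26 (SE), with an adjusted p of 0.27 in edgeR and of 0.0259 in DESeq2, and -1.20 without the 2 embryos (edgeR, adjusted p = 0.0543).

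2310039H08Rik, a protein-coding gene at chr17:46772635-46773396 that lies within the noncoding gene Gm26904, was at 0 in 9 of 9 LOF embryos of batch 1, whereas the 7 CONTROL embryos of that batch had 2.61 to 8.34 normalized counts. In batch 1, 2 of all features (0.0102%) had such a gap with LOF lower and 4 (0.0205%) with LOF higher. In batch 2, 5 of 7 LOF and 3 of 6 CONTROL embryos were at 0, and the highest values were 2.19 and 2.07. The log2 fold change over both batches was -3.56 ± 0.73 (SE), with an adjusted p of 0.117 in edgeR and 0.0259 in DESeq2. Gm20274, a transcript at chr7:122995348-122995931 within an intron of Rbbp6 on the same strand, was at 0 in 10 of 16 LOF and 1 of 13 CONTROL embryos, with highest values of 6.51 and 32.1. Its log2 fold change was -2.98 ± 0.66 (SE), with an adjusted p of 0.214 in edgeR and 0.0259 in DESeq2. DESeq2 called 4 features (0.0205% of 19514), namely Letm1, Ino80b, 2310039H08Rik and Gm20274, with lower levels in LOF for each.

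Other genes with the smallest unadjusted p in the direction of lower LOF levels (mean of at least 10 normalized counts) did not pass the adjusted threshold in the reported test. Tmem37, which resembles gamma subunits of voltage-dependent calcium channels, was at 0 in 10 of 16 LOF embryos and 1 of 13 CONTROL embryos, with medians of 0 and 6.87 and highest values of 9.91 and 73.6. The 2 groups overlapped, and the log2 fold change was -3.08 (edgeR, SE 0.68, adjusted p = 0.214). Tmem37 passed the adjusted threshold under ERCC scaling, where the genes called were Tmem37 and Gm37234, and with no filter on low counts, where they were Letm1, Gm37234, Tmem37 and Gmcl1. Spata21, named for its link to spermatogenesis, had medians of 11.7 in LOF and 22.2 normalized counts in CONTROL, and 4933408B17Rik had 8.67 and 31.3, with all 16 LOF embryos below the CONTROL median of 4933408B17Rik. Their log2 fold changes were -1.38 (edgeR, adjusted p = 0.371) and -1.44 (edgeR, adjusted p = 0.27). Mkln1, a subunit of the CTLH ubiquitin ligase, was below the lowest CONTROL embryo in 11 of 16 LOF embryos, with a log2 fold change of -0.88 (edgeR, adjusted p = 0.343). Ipmk, a kinase of inositol phosphates, was below the CONTROL median in all 16 LOF embryos at -0.54, and Nme6, a mitochondrial member of the nucleoside diphosphate kinase family, in 15 of 16 at -0.93. The pseudogene Gm7789, which may share reads with its parent gene, was at -1.03. Gmcl1, the germ cell-less homologue, had a log2 fold change of -1.92 with the CONTROL embryos that stood apart at 303 and 828 normalized counts, and of -0.47 without them (edgeR, unadjusted p = 0.201).

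Among genes with higher levels in LOF, the 10 with the smallest unadjusted p had adjusted p-values of 0.355 or more. Dido1, a chromatin protein with a PHD finger, had normalized counts of 89.6, 135 and 183 (lowest, median and highest) in LOF and 63.3, 94.8 and 127 in CONTROL. Of 16 LOF embryos, 9 were above the highest CONTROL embryo, and the log2 fold change was 0.54 (edgeR, SE 0.14, adjusted p = 0.355). Naf1, an assembly factor of H/ACA ribonucleoproteins, had medians of 18.4 in LOF and 4.54 in CONTROL with a log2 fold change of 1.43, and Nepro, a nucleolar protein, had 132 and 87.7 with 0.67. The lowest CONTROL value of Nepro, 31.3, was that of 1 of the 2 embryos that stood apart. Without both, its batch 1 value moved from 0.74 to 0.50. Pcna, the sliding clamp of DNA replication, was above the CONTROL median in all 16 LOF embryos (300 to 510 against 190 to 471 normalized counts), with a log2 fold change of 0.45 and 0.58 without the 2 embryos (edgeR, adjusted p = 0.615 and 0.0774). Smarcc2, a subunit of the BAF remodeling complex, was at 0.95, and Mafk, a small Maf transcription factor, at 0.92. Galk1, the galactokinase, was at 1.19, the nucleoside transporter gene Slc29a2 at 0.73, and Gatc, part of the mitochondrial machinery that makes glutaminyl-tRNA, at 1.02. The 2 embryos that stood apart had the lowest values of Slc29a2, 18.8 and 18.3 normalized counts. The noncoding Gm29247 was above the CONTROL median in all 16 LOF embryos at 0.87.

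**Figure D3:**
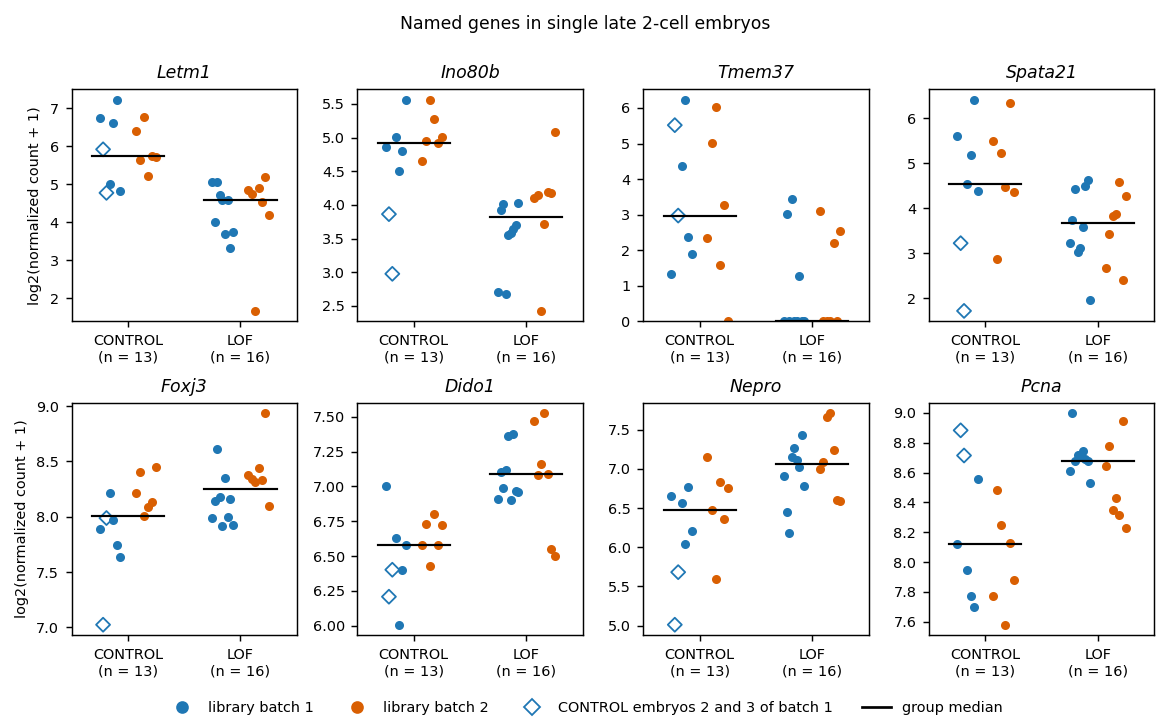
Log2(normalized count + 1) of 8 genes in each kept embryo, by group (13 CONTROL, 16 LOF) and library batch (colour), with points for embryos, diamonds for the 2 CONTROL embryos that stood apart and a line at the group median. All 16 LOF embryos lie below the CONTROL median of Letm1 and above that of Pcna, and the groups overlap in every gene shown.

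Foxj3 itself, at chr4:119537004-119629119 on the forward strand, had normalized counts of 240, 303 and 488 (lowest, median and highest) in LOF and 129, 256 and 349 in CONTROL. The groups overlapped, with 12 of 16 LOF embryos above the CONTROL median and a log2 fold change of 0.28 (edgeR, SE 0.13, adjusted p = 0.861), which was 0.23 without the 2 embryos. Of 44 forkhead genes, 23 were tested, with a median log2 fold change of 0.03 and of 0.20 without the 2 CONTROL embryos that stood apart. Of all features, 2.24% had an unadjusted p under 0.05 with higher and 3.47% with lower levels in LOF. These shares stand beside all counts over all embryos in this and the next paragraph. Of the 23 forkhead genes, 2 had such a p with higher and 1 with lower levels. Besides Foxj3 these were Foxe1 (1.74, medians of 8.23 and 3.10 normalized counts) and Foxp3, which was at 0 in 14 of 16 LOF and 7 of 13 CONTROL embryos. The closest relative by name, Foxj2, was at 0.13 over all embryos and at -0.08 without the 2 embryos, which had 5.21 and 18.3 normalized counts of it. Foxo3 and Foxr1 were at 0.07 and -0.06, and Foxm1 was at 0.01 and, without the 2 embryos, at -0.07. Of 12 genes linked to FOXJ3 in other tissues, 9 were tested. Sycp3, part of the synaptonemal complex, had -0.55 (unadjusted p = 0.0103) and -0.28 without the 2 embryos (unadjusted p = 0.102), and the other 8 had unadjusted p-values over 0.05. Of 16 targets of FOXO factors, all tested, only Bnip3, a mitophagy receptor, had an unadjusted p under 0.05, at -0.58 and at -0.69 without the 2 embryos, while the median of the 16 turned from -0.25 to 0.09.

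Over all embryos, the complex and pathway to which Ino80b and Letm1 belong had medians near that of all genes. All 15 genes of the INO80 complex were tested, with a median of 0.02, which was 0.20 in batch 1 and -0.18 in batch 2. The 2 CONTROL embryos that stood apart had 721 and 829 summed normalized counts of these genes, below the other CONTROL embryos (1264 to 1992). Yy1, a zinc finger factor that works with INO80, was at 0.51 (unadjusted p = 0.018) and at 0.36 without the 2 embryos (unadjusted p = 0.0617), when the list's median was -0.05. Over all embryos, beside Ino80b and Yy1 no member had an unadjusted p under 0.05. The ATPase gene Ino80 was at 0.10, Ino80c at -0.09, Ino80d at -0.10 and Ino80e at 0.01, and the signs of Ino80, Ino80d and Ino80e turned without the 2 embryos (-0.01, 0.01 and -0.13). All 15 genes of mitochondrial cation exchange and calcium uptake were tested, with a median of -0.08, which was 0.09 without the 2 embryos, -0.21 in batch 1 and 0.11 in batch 2. Letm1 alone had an unadjusted p under 0.05 over all embryos. Its paralogue Letm2 was at -0.68 (unadjusted p = 0.106) and at -0.88 without the 2 embryos (unadjusted p = 0.0388), with medians of 5.94 in LOF and 10.4 normalized counts in CONTROL. The calcium uniporter gene Mcu was at -0.18 and, without the 2 embryos, at 0.09, and Ghitm, another gene of inner membrane cation exchange, at -0.07.

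Among genes of genome activation, the Zscan4 and Obox families had median levels below CONTROL, and both medians were nearer to 0 without the 2 CONTROL embryos that stood apart. Without these embryos, 581 of all features (2.98%) had an unadjusted p under 0.05 with higher and 642 (3.29%) with lower levels in LOF, and 3 (0.0154%) passed the adjusted threshold (Letm1, Spic and 4933408B17Rik). Over all embryos, 3 of 6 Zscan4 genes, zinc finger genes expressed in a burst at the 2-cell stage, had such a p with lower levels, against 3.47% of all features. The median log2 fold change of the 6 was -0.65. Zscan4f ranged from 5.42 to 57.2 normalized counts in LOF and from 7.96 to 190 in CONTROL, where the 2 embryos were at 181 and 190. Its log2 fold change was -1.13 with them and -0.30 without them (edgeR, unadjusted p = 0.00755 and 0.35), -1.97 in batch 1 and 0.02 in batch 2. Without the 2 embryos, 0 of 6 Zscan4 genes had an unadjusted p under 0.05 in edgeR and the median was -0.24. Of 7 Obox homeobox genes, 0 were lower by this rule over all embryos and Obox3 (-0.40) and Obox6 (-0.35) were lower without the 2 embryos, while the medians were -0.38 and -0.09. With mCherry-Trim21 as covariate, 1 of 6 Zscan4 genes was lower, against 531 of 19517 features. The medians of Zscan4 and Obox genes were then -0.27 and -0.17. With the ribosomal RNA share as covariate, 3 of 6 Zscan4 genes were lower, against 896 of 19517 features. The medians of Zscan4 and Obox genes were -0.72 and -0.31 in that fit. For 24 genes of multicopy 2-cell families such as Usp17l, the median was -0.14 over all embryos and 0.00 without the 2 embryos. Reads of these families may be shared between near-identical copies, so that values of single members are uncertain. The 15 single-copy 2-cell markers had medians of -0.09 and 0.00, and 21 transcription factors of genome activation had 0.01 and 0.04. Of these 21, Srf was higher (0.57) and Dbp lower (-1.31) over all embryos, whereas without the 2 embryos 0 were higher and Dppa2 (-0.47), Dppa4 (-0.33) and Esrrb (-0.58) were lower. Under ERCC scaling the medians of Zscan4, Obox and SINE B2 members stayed below 0 (-0.53, -0.16 and -0.43). Those of the multicopy families and single-copy markers were 0.06 and 0.13, not above the median of 0.14 over all features in that fit.

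**Figure D4:**
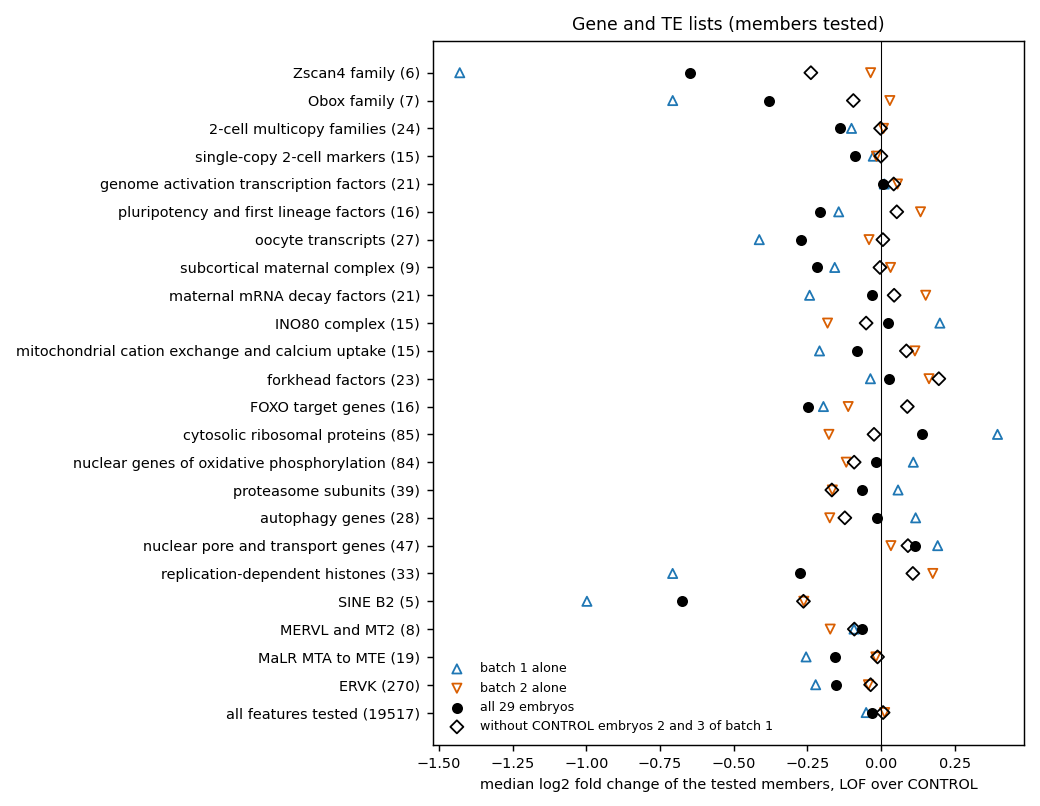
Median log2 fold change (LOF over CONTROL) of the tested members of 23 gene and TE lists and of all features, with the number of members in brackets, for all 29 embryos (filled circles), without the 2 CONTROL embryos that stood apart (diamonds) and within each batch (triangles). The Zscan4 median is -0.65 with all embryos, -0.24 without the 2, -1.43 in batch 1 and -0.04 in batch 2, and that of SINE B2 moves from -0.67 to -0.26.

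Oocyte transcripts, which are cleared at this stage, also had a median below 0 that moved without the 2 embryos. Of 27 oocyte transcripts, 3 had an unadjusted p under 0.05 with lower and 1 with higher LOF levels, against 3.47% and 2.24% of all features. The median of the list was -0.27, and 0.01 without the 2 embryos. H1foo, the oocyte linker histone, had medians of 97.2 in LOF and 167 normalized counts in CONTROL, and a highest CONTROL value of 1160. Its log2 fold change was -1.04 (edgeR, unadjusted p = 0.00117) and -0.42 without the 2 embryos (unadjusted p = 0.0608). Medians of the subcortical maternal complex were -0.22 and 0.00, and 21 factors of maternal mRNA decay had -0.03 and 0.04. The lactate dehydrogenase subunit Ldhb, abundant in oocytes, was at -0.75 and -0.24. In summed normalized counts, the 27 oocyte transcripts were at 46683 and 52735 in the 2 embryos and at 17796 to 45647 in the other 11 CONTROL embryos, and LOF embryos spanned 18279 to 43895. Whether the 2 embryos differed in stage was not tested.

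Lists of general cell functions are described by the same counts, read against the shares of all features given above. Of 47 nuclear pore and transport genes, 4 had an unadjusted p under 0.05 with higher levels in LOF and 0 with lower levels (edgeR), with a median of 0.11 and of 0.09 without the 2 embryos, when 2 were higher and 1 lower. The importin Ipo11 was at 0.51 and the exportin Xpo6 at 0.46. Of 24 genes listed for H3K4 and H3K27 methylation, 3 were higher and 0 lower by the same rule, with a median of 0.04. The 3 were Kmt2c (0.33), Kmt2d (0.37) and the demethylase Kdm5b (0.38). Without the 2 embryos 3 were higher and 0 lower, with Rnf2 (0.31 over all embryos) in place of Kdm5b. Rnf2 is on the list but is not itself a methylation enzyme. With mCherry-Trim21 as covariate 0 genes of the list were higher and 1 lower (median -0.05), against 348 and 531 of 19517 features. With the ribosomal RNA share as covariate 2 were higher and 0 lower (median 0.01), against 377 and 896 of 19517 features. In batch 1 there were 0 and 0 (median -0.08; edgeR), and in batch 2 there were 3 and 1 (median 0.23). Of 85 cytosolic ribosomal protein genes, 3 were higher and 1 lower over both batches, with a median of 0.14, and 3 and 3 without the 2 embryos, with a median of -0.02. A difference between batches was not tested for the list. In batch 1, 18 of 85 had an unadjusted p under 0.05 with higher LOF levels and 0 with lower levels, against 2.47% and 5.24% of all features, with a median of 0.39. In batch 2, 2 were higher and 7 lower, against 2.96% and 3.04%, with a median of -0.18. In batch 1 without the 2 embryos, 5 were higher and 0 lower, against 2.97% and 2.4%, with a median of 0.13. The 2 embryos had 19062 and 31241 summed normalized counts of these genes, below the other CONTROL embryos (37595 to 65956). Of 84 nuclear genes of oxidative phosphorylation, 2 were higher and 2 lower over both batches, 10 had such a p with lower levels in batch 2 and 2 with higher levels in batch 1, and Ndufs5, a subunit of complex I, was at -0.65 over both batches. Of 39 proteasome genes, 2 were higher and 1 lower over all embryos (median -0.06). Without the 2 embryos, 0 were higher and 7 lower (median -0.17). The 2 embryos had 2988 and 3918 summed normalized counts of these genes, below the other CONTROL embryos (6149 to 11192). With the 2 embryos included, the median was 0.16 under ERCC scaling, beside 0.14 over all features. With the ribosomal RNA share as covariate, over the same embryos, it was 0.08, beside -0.05. Of 28 autophagy genes, 0 were higher and 2 lower over all embryos in edgeR (median -0.01). Without the 2 embryos, 0 were higher and 6 lower (median -0.12). The 2 embryos had 2998 and 4499 summed normalized counts of these genes, below the other CONTROL embryos (6918 to 12772). Under ERCC scaling with the 2 embryos included, 0 were higher and 0 lower, against 3.26% and 1.29% of all features. The median was then 0.16, beside 0.14 over all features. Gabarap, which joins autophagosomal membranes, was at -0.62, with medians of 82.6 in LOF and 127 in CONTROL and 15 of 16 LOF embryos below the CONTROL median. Of 33 Mediator subunit genes, which link transcription factors to RNA polymerase II, Med26 was higher (0.53) and Med16 (-0.73) and Med27 (-0.48, and -0.16 without the 2 embryos) lower with all embryos, and 2 were higher and 6 lower without the 2 embryos.

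Other lists of chromatin, RNA and replication genes held members on both sides of 0. Of all features, 2.24% had an unadjusted p under 0.05 with higher and 3.47% with lower levels in LOF. Without the 2 embryos these shares were 2.98% and 3.29%. They stand beside all counts in this paragraph. Of 32 SWI/SNF and CHD remodelers, Smarcc2 and Smarcd1 (1.04, named after its values were seen) had an unadjusted p under 0.05 with higher levels and 3 had lower levels, namely Bcl7c (-0.52), Brd7 (-0.52) and Smarcal1 (-0.55, and -0.21 without the 2 embryos), with a median of -0.03. Without the 2 embryos, 1 was higher and 2 lower. Of 57 spliceosome and SR protein genes, 2 were higher and 3 lower, and 2 and 4 without the 2 embryos. The core splicing factor Prpf8 was at 0.51, Prpf18 at 0.29 and the imprinted Snrpn at -0.48. Of 47 genes of replication licensing and forks, Pcna and the origin recognition gene Orc4 (0.39) were higher and 0 lower with a median of -0.06, and 1 was higher and 3 lower without the 2 embryos. Medians of 40 nucleolar and ribosome biogenesis genes and of 28 RNA polymerase subunits were 0.12 and 0.09, with 1 member higher in each, and -0.06 for both lists without the 2 embryos. Among ribosomal protein genes, Rpl10a was at 0.54 over both batches and Rps27l at -0.31.

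Genes that could respond to the antibody or to injection were also listed. For p53 targets and apoptosis genes, interferon and NF-kB response genes, and ubiquitin and antibody disposal genes, 0 of 21, 18 and 16 tested members had an unadjusted p under 0.05 in edgeR, with medians of 0.05, -0.11 and -0.01. Without the 2 embryos, 1 of the p53 and apoptosis genes was higher and 1 lower. Of 21 heat shock genes, 0 were higher and 2 lower over all embryos (median 0.07), against 2.24% and 3.47% of all features. Without the 2 embryos, 1 heat shock gene was higher and 1 lower (median 0.01).

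In batch 2 alone, 1 feature passed (0.00512%), the satellite repeat SYNREP_MM, which was named after its values were seen. Its batch 2 CONTROL embryos were at 880, 111, 15.5, 1.33, 0 and 0 normalized counts and the 7 LOF embryos at 0 to 1.43, while in batch 1 LOF embryos reached 388 and CONTROL embryos 224. The high values came from few embryos of either group, and over both batches the log2 fold change was -2.14 (edgeR, adjusted p = 0.916). Over both batches, no TE family passed the threshold in edgeR, DESeq2 or limma's voom, and 11 of 891 (1.23%) had an unadjusted p under 0.05 in edgeR with higher and 45 (5.05%) with lower levels in LOF. The share of reads on TEs was 19.5 ± 3.68% in LOF (SD, n = 16) and 23.5 ± 4.48% in CONTROL (SD, n = 13; permutation test within batches, p = 0.0153 and 0.0460 when adjusted). Without the 2 embryos that stood apart, the difference was -2.74 percentage points (permutation test, p = 0.0682). The ribosomal RNA share of the same reads was higher in LOF, as given above. As a share of reads outside the ribosomal RNA rows, a measure added after the data were seen, TEs were at 25.3 ± 2.90% in LOF and 27.8 ± 5.17% in CONTROL, a difference that did not pass (permutation test within batches, p = 0.109 and 0.327 when adjusted). SINE B2 elements, short repeats transcribed by RNA polymerase III, included B2_Mm2, the family with the smallest p among those with a mean of at least 10 normalized counts. B2_Mm2 had normalized counts of 4823, 7680 and 17016 (lowest, median and highest) in LOF and 6345, 9731 and 50637 in CONTROL. In LOF, 14 of 16 embryos were below the CONTROL median, and the log2 fold change was -0.79 (edgeR, SE 0.24, adjusted p = 0.541) and -0.39 without the 2 embryos (edgeR, unadjusted p = 0.0344). B2_Mm1t and B2_Mm1a were at -0.70 and -0.67, and at -0.30 and -0.26 without the 2 embryos, while B3A was at 0.09. The next TE families by p at that level were RLTR20B3A_MM (-1.05, and -0.76 without the 2 embryos, which were its highest CONTROL embryos at 33.4 and 42.4 normalized counts) and ZP3AR (-0.67, and -0.61 without them) below 0, and RLTR41B (0.88), L1ME2z (0.80), RLTR20A4 (0.41) and MLTR14 (0.19) above 0, of which RLTR20A4 and MLTR14 had unadjusted p-values of 0.105 and 0.157. In batch 2 alone the log2 fold changes of B2_Mm2, B2_Mm1t and B2_Mm1a were -0.27, -0.31 and -0.26.

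Several families of endogenous retroviruses and LINE1 that the study screened are given next. IAPEZ, which the study also screened, is not named among them. MERVL-int, the internal part of an endogenous retrovirus expressed at this stage, had medians of 17273 in LOF and 20300 normalized counts in CONTROL and a log2 fold change of -0.14 (edgeR, SE 0.17, unadjusted p = 0.409). Its promoter repeat MT2_Mm was at -0.07 and, without the 2 embryos, at 0.11, and 0 of 8 MERVL and MT2 families had an unadjusted p under 0.05. ORR1A0 and ORR1A1, of the MaLR class, were at -0.22 and -0.16, and 19 families from MTA to MTE had a median of -0.16, which was -0.01 without the 2 embryos. For L1MdTf_II, a young LINE1 family, the study's methods replaced the elements in the annotation by monomer coordinates. It was at 0.36 (edgeR, SE 0.37, unadjusted p = 0.346), with medians of 75.4 in LOF and 35.2 in CONTROL and overlapping ranges. Its highest value, 382 normalized counts, was that of CONTROL embryo 6 of batch 1. Without this embryo, singled out for that value, the log2 fold change was 0.86 (edgeR, adjusted p = 0.686). Of 270 ERVK families, 16 had an unadjusted p under 0.05 with lower and 1 with higher LOF levels, and 18 and 1 without the 2 embryos, when 34 of all TE families (3.82%) were lower and 11 (1.23%) higher. ERVK medians were -0.15 and -0.04, beside -0.09 and -0.01 over all TE families.

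The second comparison asked whether the FOXJ3 LOF effect was alike in the 2 library batches, which share no embryos. For the difference of the effects between batches, 0 features passed the adjusted threshold in edgeR or in DESeq2. An unadjusted p under 0.05 was found for 1553 and 1545 of 19517 features, beside 1115 (5.71%) for the LOF effect over both batches. The effect was higher in batch 2 for 66.3% of the 1553 and 71.1% of the 1545. Of 52 features with a mean of at least 10 normalized counts and an unadjusted p under 0.05 in both batches, 18 had the same sign (34.6%), against 44.2% of all 9959 such features. When batch 1 lacked the 2 CONTROL embryos that stood apart, 41 of 48 had the same sign (85.4%, of which 33 were lower and 8 higher), against 54.6% of all. Of the 9959 features with a mean of at least 10 normalized counts, 805 had an unadjusted p under 0.05 in batch 1. The number was 473 in batch 1 without the 2 embryos and 585 in batch 2. For 11 genes such a p and the same direction were found in all of these settings. Whether 11 is more than expected by chance was not tested. Lower in LOF were Letm1, Ino80b, Tmem37, Spata21, 4933408B17Rik, Phlda2 and 3000002C10Rik, and higher were Mafk, Nepro, Dido1 and Gm29247. Phlda2, an imprinted gene that restrains placental growth, had -1.03 in batch 1 and -1.39 in batch 2, and 3000002C10Rik had -1.06 and -1.71. Both were named after their values were seen.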

How the data were processed

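Single-embryo Smart-seq+5' libraries of 16 FOXJ3 LOF and 13 CONTROL embryos were compared. Per the sources, the authors trimmed reads, mapped 5' reads with STAR 2.7.11a to GRCm38 with the mCherry-Trim21 construct added, and counted them with TEcount. The deposited values are estimated counts (expected counts) per gene, spike-in and TE family, all whole numbers, without normalization. The sources used here do not say how the counting treated multi-mapping reads or strand.

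Here, 42 subfamily rows were added to 6 families. Features detected by 1 read or more in 25% or more of the kept embryos (18626 genes, 891 TE families) were tested with edgeR 4.0.16 (quasi-likelihood, two-sided, TMM, library batch as covariate), in place of the DESeq2 used by the authors. Adjustment was by Benjamini-Hochberg over all features. Normalized counts are counts per effective library size. DESeq2 1.42.0, limma 3.58.1, R 4.3.3, Python 3.11.15, numpy 2.4.6 and pandas 2.3.3 were also used. Shares of reads were compared by permutation tests with 100000 resamples within batches, exact within 1 batch. Scripts were tested on simulated data. Names and coordinates were from gencode M21.

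Named genes were Foxj3, mCherry-Trim21, the genes and TE families that the study names for these embryos, those past the threshold in edgeR or DESeq2, in each direction the 10 genes and 4 TE families of smallest p (mean of at least 10 normalized counts), and up to 4 members of each list described. All members of the INO80, mitochondrial cation exchange and forkhead lists could be named, and the text names some of them. The comparison, the 59 gene and TE lists and this rule were chosen with earlier results of these data known. Lists were described by counts and medians and not tested. Alternatives changed the tool, scaling, filter, covariates and embryos.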

Additional observations from a re-analysis of the deposited data

How the results depend on the processing

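The count of genes past the threshold was 2 in the reported test. It was 4 with DESeq2, 4 with no filter on low counts and 1 with edgeR's filterByExpr. It was 0 with limma's voom, with mCherry-Trim21 or, added after seeing the data, the ribosomal RNA share as covariate, in batch 1 alone and in batch 2 alone (unadjusted p under 0.05 in 1129, 879, 1273, 1700 and 1015 features). Batch 2 alone gave 1 TE family, SYNREP_MM. Leaving out single embryos gave 1 to 4 genes and 0 TE families. The count was 1, Letm1, without any of 11 LOF embryos or either CONTROL embryo 3 (batch 1 or 2), and 4 without LOF embryo 3 of batch 1 or of batch 2. Without the 2 CONTROL embryos that stood apart it was 3, with Letm1, Spic and 4933408B17Rik.

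Embryo numbers shared between groups were not treated as pairs in the reported test. A check on so few pairs cannot decide whether these numbers mark a shared collection. Of 12 same-numbered pairs, 3 had correlated deviations over 0.1 (-0.21 to 0.27), and 5 of 24 embryos correlated best with their own number. With the replicate number as a block the count of genes was 0 (784 features with an unadjusted p under 0.05), and in the same embryos with no block also 0 (1290 features).

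The mCherry-Trim21 difference did not pass over all 30 embryos when adjusted over 6 measures (-1.06, permutation test, adjusted p = 0.0508, and 0.0383 over 8), in batch 1 (-0.73), in batch 2 (-1.32), without the 2 embryos (-0.9998) scaled to ERCC (-0.75) or per reads outside the ribosomal RNA rows (-0.86). The TE share difference did not pass over all embryos (-3.42 percentage points), in batch 2 (-2.73), without the 2 embryos (-2.74) or as a share of reads outside the ribosomal RNA rows (-2.55). The ribosomal RNA share difference did not pass in batch 1 (8.30), batch 2 (7.26) or without the 2 embryos (8.23). The SINE B2 share difference (-2.19, two-sided permutation test, adjusted p = 0.0387) did not pass when permuted without batches (-2.19), in batch 1 (-3.51), in batch 2 (-0.68) or without the 2 embryos (-0.83). Of the measures that passed in no setting, the ERCC share kept its sign, and the other 3 changed sign. Log2 counted reads differed by 0.01, and by -0.15 over all embryos and -0.11 in batch 1. Detected genes differed by -157, and by 325 in batch 2 and 87.5 without the 2 embryos. The mitochondrial share differed by -0.19, and by 0.54 percentage points in batch 2. The cause of these moves was not tested.

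Depth and spread limit what can be said of low genes. The 95% interval of the log2 fold change lay within 1 of 0 for 97.1% of 2498 genes with a mean of 100 to 1000 normalized counts, for 77.2% of 6862 genes with 10 to 100 and for 5.94% of 7144 genes with 1 to 10.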

Other observations

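Spic, an Ets factor known from red pulp macrophages, was named after its values were seen, since it passed the threshold when the 2 CONTROL embryos that stood apart were left out. Its normalized counts were 160, 321 and 774 (lowest, median and highest) in LOF and 63.0, 554 and 1414 in CONTROL, and the 2 embryos were at 63.0 and 231. Its log2 fold change was -0.88 with all embryos (edgeR, adjusted p = 0.541) and -1.09 without the 2 (edgeR, adjusted p = 0.0197), with -0.62 in batch 1 and -1.19 in batch 2. Under the same setting 4933408B17Rik was at -1.66 (edgeR, adjusted p = 0.0296).

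Of 16 factors of pluripotency and the first lineages, the median log2 fold change was -0.21, and 0.05 without the 2 embryos. Pou5f1 was at -0.52 and at 0.04, and Fgf4, of the blastocyst markers, at -0.33 (unadjusted p = 0.222) and at -0.56 (unadjusted p = 0.00663). Of 29 genes of glucose, lactate and pyruvate metabolism, 2 had an unadjusted p under 0.05 with higher and 1 with lower levels in LOF (edgeR, median -0.05). Of all features, 2.24% and 3.47% did. In glycolysis, Aldoa was at 0.55 and, without the 2 embryos, at 0.58. Lsm10, part of the U7 particle that processes histone mRNA, was at -0.58. Separately, the 33 tested replication-dependent histone genes had a median of -0.27, which was 0.11 without the 2 embryos, -0.71 in batch 1 and 0.18 in batch 2. Per the study's methods, reverse transcription was primed with oligo-dT, so transcripts without a poly(A) tail are captured poorly. A link between Lsm10 and the histone genes was not tested.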
